A study of Arabidopsis thaliana with 12 samples.

Results

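The WRKY genes of Arabidopsis thaliana encode a plant family of transcription factors, and 47 of them are described here across 4 groups of whole seedlings. They were chosen by locus identifier, with no measured value in the rule, and all 47 were found among the 27655 genes of the deposited table, which also holds 25 other WRKY genes. Each WRKY protein carries 1 or 2 copies of a DNA-binding domain that starts with the amino acids tryptophan, arginine, lysine and tyrosine and holds a zinc finger. The domain binds the W box, a DNA element with the core TTGAC, which is common in the promoters of defence genes and of WRKY genes themselves. In Arabidopsis the family is known for its part in immune signalling, salicylic acid responses, leaf senescence and responses to heat, drought and nutrient shortage.

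The libraries came from wild-type Columbia 7-day-old seedlings raised at 21°C in short days, with 8 h of light followed by 16 h of darkness. From 1 h after lights on, seedlings were held at 27°C with mannitol, at 27°C, at 21°C with mannitol, or at 21°C, with 3 libraries per group, and all were collected 12 h later, 5 h after lights off. Mannitol is a sugar alcohol that draws water from plant cells and serves as an osmotic treatment. The labels name no concentration for it, and genotype, age and day length were the same in all groups. The labels do not say whether the 3 replicates of a group were grown or harvested separately, so the p-values measure only the spread between these samples. Levels are in TPM, a unit scaled by gene length and by library total, in which every library sums to 1000000. Depth, as whole reads worked back from the TPM, was 13477706 to 14572531 reads per library.

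The 47 genes fall into the usual subgroups of the family: 8 genes in group I, 3 in IIa, 5 in IIb, 9 in IIc, 7 in IId, 5 in IIe and 10 in III. Their coding sequences in the RefSeq TAIR10.1 annotation showed what sets the groups apart. All 8 group I genes encoded 2 copies of the domain signature and the other 39 encoded 1. A zinc finger of the C2HC pattern was found in all 10 group III genes, and the C2H2 pattern in all 37 others. The bases that encode the signature are shown for 1 gene of each subgroup and for WRKY50 and WRKY51, with the codon at the sixth position of the signature in capitals. That codon reads glutamine in 45 genes and lysine in WRKY50 and WRKY51.
WRKY33 (group I), first copy: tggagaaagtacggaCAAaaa
WRKY33 (group I), second copy: tggagaaaatacggcCAGaaa
WRKY18 (group IIa): tggaggaaatacggaCAAaag
WRKY47 (group IIb): tggagaaaatacggtCAGaaa
WRKY8 (group IIc): tggagaaagtatggcCAAaaa
WRKY50 (group IIc): tggagaaagtatgggAAGaag
WRKY51 (group IIc): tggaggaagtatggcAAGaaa
WRKY15 (group IId): tggaggaaatacggaCAAaaa
WRKY22 (group IIe): tggcgaaagtacggaCAGaaa
WRKY53 (group III): tggagaaaatatggtCAAaaa
The 55 copies were written with 46 different spellings of these bases.

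The 250 bases before the annotated start are shown for 4 genes on which the results below turn: WRKY30 and WRKY53, which had the highest mannitol differences, WRKY33, and WRKY18, whose mannitol difference was smaller at 27°C. Capitals mark TTGAC, the W-box core, or GTCAA, the same core on the other strand. Sequences run 5′ to 3′ on the strand of the gene, from the RefSeq TAIR10.1 genome.
WRKY30, chr5:8154711-8154960, minus strand: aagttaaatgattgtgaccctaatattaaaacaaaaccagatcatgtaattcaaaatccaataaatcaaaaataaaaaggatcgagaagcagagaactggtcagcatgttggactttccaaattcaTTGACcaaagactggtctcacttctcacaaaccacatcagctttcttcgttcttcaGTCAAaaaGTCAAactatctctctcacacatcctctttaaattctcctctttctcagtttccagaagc
WRKY53, chr4:12393983-12394232, minus strand: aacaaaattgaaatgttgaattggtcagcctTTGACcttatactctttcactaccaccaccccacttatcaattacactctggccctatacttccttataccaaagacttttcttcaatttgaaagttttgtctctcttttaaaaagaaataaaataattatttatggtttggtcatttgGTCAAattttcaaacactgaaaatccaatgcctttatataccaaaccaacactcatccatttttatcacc
WRKY33, chr2:16107985-16108234, plus strand: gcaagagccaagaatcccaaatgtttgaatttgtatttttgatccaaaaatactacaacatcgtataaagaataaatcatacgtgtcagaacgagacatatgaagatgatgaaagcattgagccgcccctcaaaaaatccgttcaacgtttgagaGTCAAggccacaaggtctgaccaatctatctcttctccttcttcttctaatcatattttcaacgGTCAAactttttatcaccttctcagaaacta
WRKY18, chr4:15382527-15382776, plus strand: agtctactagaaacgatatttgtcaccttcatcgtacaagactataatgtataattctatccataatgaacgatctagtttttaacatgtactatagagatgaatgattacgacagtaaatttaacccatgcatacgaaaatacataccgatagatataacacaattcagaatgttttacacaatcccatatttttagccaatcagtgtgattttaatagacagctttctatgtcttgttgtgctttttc
The core occurred 3 times before WRKY30, 2 times before WRKY53 and 2 times before WRKY33, and these letters were not in the window before WRKY18. Among the 47 genes, 25 (53.2%) had at least 1 core in this window and 13 (27.7%) had 2 or more. Over the promoters of 27443 protein-coding genes the shares were 44.9% and 14.1%. By subgroup, at least 1 core was found for 8 of 10 genes in III, 4 of 8 in I and 1 of 3 in IIa. It was found for 3 of 5 in IIb, 5 of 9 in IIc, 3 of 7 in IId and 1 of 5 in IIe. A link between cores and mannitol differences was not tested. A match of 5 letters is a description of the sequence and does not show binding.

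WRKY transcripts were mostly higher with mannitol, at either temperature. Of the 45 WRKY genes with enough signal to test, 41 rose with mannitol at 27°C and none fell, and 31 rose with mannitol at 21°C and 1 fell. The same calls were made for 27.7% (higher) and 6.8% (lower) of all 20005 genes tested at 27°C, and for 15.4% (higher) and 4.61% (lower) at 21°C. The median log2 difference over the tested WRKY genes was 0.82 at 27°C and 0.74 at 21°C, against 0.17 and 0.08 over all genes tested. These counts and medians include 7 WRKY genes that could be tested only through their mannitol libraries, as set out below. These calls are limma moderated tests on log2(TPM + 1) with Benjamini-Hochberg adjusted p below 0.05 over all tested genes, and a gene was tested if it reached 1 TPM in at least 3 of the 12 libraries. Because 1 is added before the logarithm, log2 differences of genes near 0 are smaller than the ratio of their TPM values.

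Altogether 30 WRKY genes were called higher with mannitol at both temperatures, 11 at 27°C alone and 1, WRKY22, at 21°C alone. Being called at 1 temperature and not at the other does not show that the effects differ, and the test of that difference is given further below. The 47 levels summed to between 1047 and 1078 TPM per library at 27°C with mannitol and between 635 and 649 TPM at 27°C. At 21°C with mannitol they summed to between 874 and 921 TPM, against 525.5 to 582.4 TPM at 21°C. Both sums were therefore higher with mannitol in every library. The plot of all genes by library shows each gene relative to its own mean, not these sums.

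**Figure D1:**
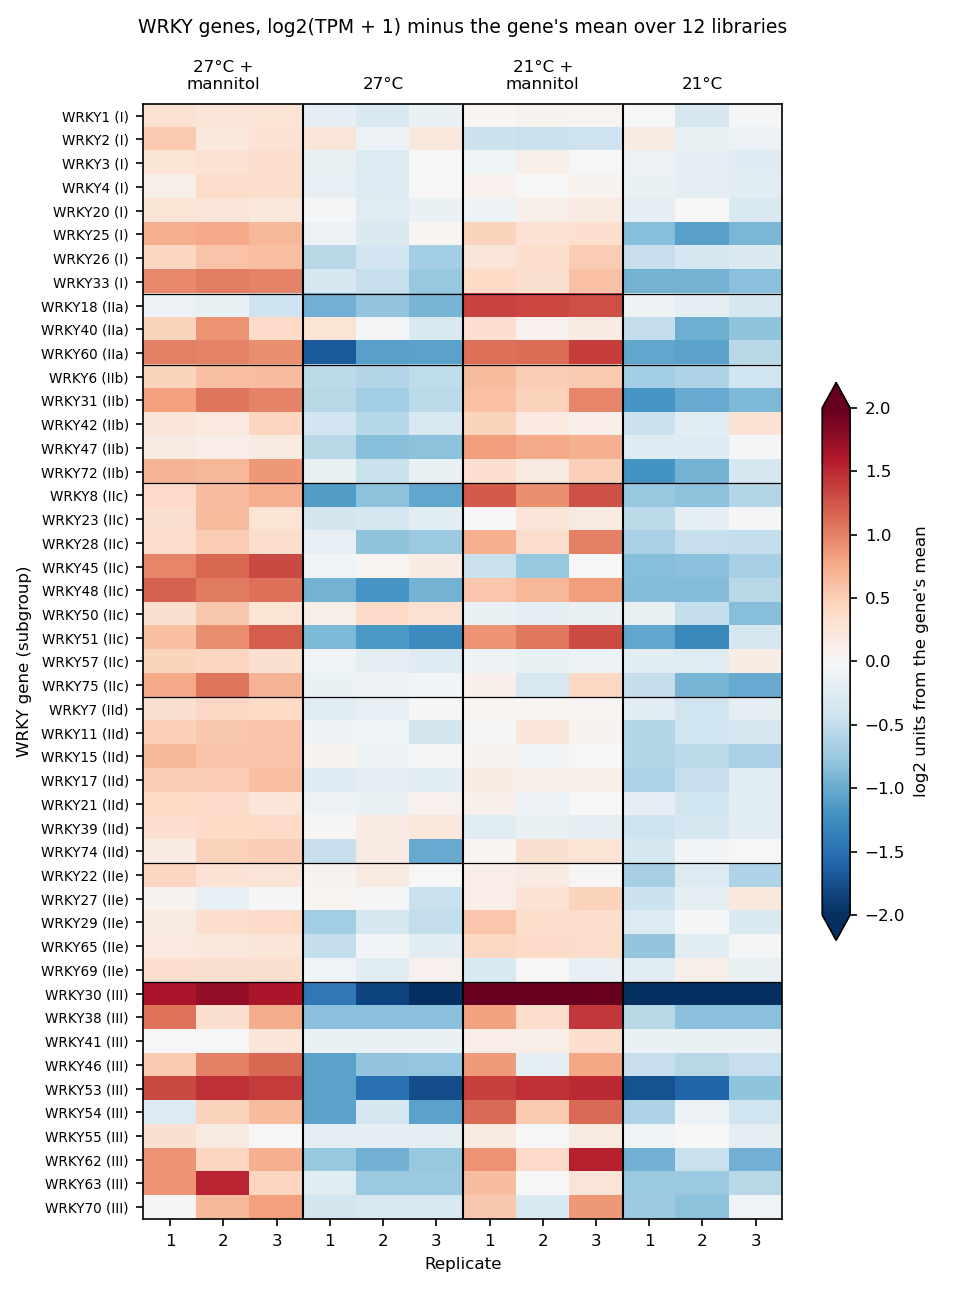
Level of each of the 47 WRKY genes (rows, subgroup in brackets) in each of the 12 libraries (columns, replicates 1 to 3 of each group), as log2(TPM + 1) minus the gene's mean over the 12 libraries; colours are capped at 2 units. Rows of group III, WRKY30 and WRKY53 most of all, are red in both mannitol groups and blue in both groups without mannitol, and WRKY18 is reddest at 21°C with mannitol.

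The way genes entered the test matters for the counts. Among the tested WRKY genes, 38 reached 1 TPM in at least 3 libraries without mannitol, and of these 34 rose with mannitol at 27°C and 24 at 21°C. Of all tested genes, not narrowed in this way, 27.7% rose at 27°C and 15.4% at 21°C. The other 7 WRKY genes, WRKY8, WRKY30, WRKY38, WRKY46, WRKY51, WRKY62 and WRKY63, passed only through their mannitol libraries, so a difference was built into their selection. The 2 untested genes are both in group III. WRKY41 (AT4G11070), which acts in seed dormancy, had 1, 1 and 3 reads at 27°C with mannitol and 2, 2 and 4 reads at 21°C with mannitol, and was listed at 0 in the other 6 libraries. WRKY55 (AT2G40740) had at most 6 reads in any library and was listed at 0 in all 3 libraries at 27°C.

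Seedlings are a mixture of tissues, and in bulk RNA fewer cells of a type and less RNA per cell cannot be told apart. The 5 shoot markers, abundant photosynthesis genes such as RBCS1A, were lower with mannitol in 4 of 5 cases at 27°C and 3 of 5 at 21°C, where 6.8% and 4.61% of all tested genes were. They summed to 29095 to 30107 TPM at 27°C with mannitol and 40741 to 41514 TPM at 27°C, and to 33546 to 36008 TPM at 21°C with mannitol and 41330 to 42963 TPM at 21°C. Of 11 root markers, 3 (27.3%) were higher and 1 (9.09%) lower with mannitol at 27°C, near the 27.7% and 6.8% of all tested genes. At 21°C, 4 (36.4%) were higher and none lower, beside 15.4% and 4.61%. After rescaling of the libraries the root marker counts were 1 and 2 at 27°C, beside 11.7% (higher) and 14.9% (lower) of all tested genes. At 21°C they were then 2 and 0, beside 10.3% and 9.53%. The root markers summed to 290 to 298 TPM at 27°C with mannitol and 238 to 254 TPM at 27°C, and to 308 to 330 TPM at 21°C with mannitol and 187 to 270 TPM at 21°C. None of these 16 markers was at 0. The part of tissue makeup in the WRKY differences was not tested.

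Group III held WRKY30 and WRKY53, the genes with the largest mannitol differences of the family. All 8 of its tested genes rose with mannitol at both temperatures, but 5 of the 8 (WRKY30, WRKY38, WRKY46, WRKY62 and WRKY63) entered the test only through their mannitol libraries, so neither that count nor their calls support a difference. The other 3, WRKY53, WRKY54 and WRKY70, rose by 2.83, 1.11 and 0.83 at 27°C and by 2.83, 1.31 and 0.91 at 21°C on the log2 scale. Summed over its 10 genes, the group stood at 48.7 to 57.4 TPM at 27°C with mannitol and 6.41 to 8.37 TPM at 27°C. At 21°C with mannitol it stood at 52.9 to 70.3 TPM, against 5.93 to 10.4 TPM at 21°C. In libraries without mannitol it was the least abundant subgroup by this sum.

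WRKY30 (AT5G24110), which is linked to senescence and tolerance of oxidative stress, had 14.7, 16.1 and 14.7 TPM at 27°C with mannitol, against 0.886, 0.416 and 0.220 TPM at 27°C. At 21°C with mannitol it had 23.5, 21.9 and 21.9 TPM, against 0.104, 0.210 and 0.207 TPM at 21°C. The groups did not overlap, and at 21°C the values without mannitol rest on only 1 or 2 reads per library. Its log2 difference with mannitol was 3.45 ± 0.15 at 27°C and 4.32 ± 0.15 at 21°C (SE), the highest of the 45 in both comparisons. It is given as a description, without a p-value, because the gene passed the filter only through its mannitol libraries.

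WRKY53 (AT4G23810), a promoter of leaf senescence, had 16.8, 18.6 and 17.8 TPM at 27°C with mannitol, against 2.41, 1.55 and 1.09 TPM at 27°C. At 21°C with mannitol it had 17.4, 18.6 and 19.2 TPM, against 1.13, 1.35 and 3.07 TPM at 21°C. Both mannitol groups sat at one level and both groups without mannitol at another. The log2 difference was 2.83 ± 0.21 at each temperature (SE; limma adjusted p = 1.95e-07 at 27°C and 2.22e-07 at 21°C). Of the 5 senescence markers, SAG12, which marks late senescence, was listed at 0 in every group. Of the 4 tested, 2 were called higher with mannitol at each temperature and none lower, beside 27.7% (27°C) and 15.4% (21°C) of all tested genes called higher. SAG13, with log2 differences of 1.28 at 27°C and 1.19 at 21°C, passed the filter only through its mannitol libraries, so a difference was built into its selection. At 21°C, ORE1 differed by 0.89, NAP by 0.14 and SGR1 by -0.03. At 27°C, mean TPM with and without mannitol were 14.9 and 13.3 for ORE1, 1.56 and 2.04 for NAP, and 11.6 and 9.0 for SGR1. After rescaling of the libraries, 1 of the 4 was called higher at 27°C, beside 11.7% of all tested genes. At 21°C, 2 were then called higher, beside 10.3%. The 5 markers together summed to 25.8 to 32.3 TPM at 27°C with mannitol and 23.4 to 25.6 TPM at 27°C. At 21°C they summed to 23.6 to 25.4 TPM with mannitol and 15.2 to 18.2 TPM without.

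WRKY46, WRKY54 and WRKY70 act together in brassinosteroid and drought signalling, and WRKY54 and WRKY70 restrain senescence. WRKY46 (AT2G46400) had 2.01, 3.24 and 3.64 TPM at 27°C with mannitol, against 0, 0.215 and 0.227 TPM at 27°C, and 2.79, 0.855 and 2.59 TPM at 21°C with mannitol, against 0.535, 0.434 and 0.534 TPM at 21°C. WRKY54 (AT2G40750) had 1.47, 3.11 and 3.63 TPM at 27°C with mannitol, against 0.419, 1.34 and 0.416 TPM at 27°C, and 5.56, 3.29 and 5.52 TPM at 21°C with mannitol, against 0.941, 1.75 and 1.25 TPM at 21°C. WRKY70 (AT3G56400) had 5.68, 9.30 and 10.5 TPM at 27°C with mannitol, against 4.07, 4.26 and 4.31 TPM at 27°C, and 8.48, 4.32 and 11 TPM at 21°C with mannitol, against 2.94, 2.72 and 5.17 TPM at 21°C. The groups did not overlap for WRKY46 and WRKY54, whereas for WRKY70 the libraries at 21°C did, through replicate 2 with mannitol and replicate 3 without. The 3 genes rose with mannitol by 1.77 ± 0.26, 1.11 ± 0.27 and 0.83 ± 0.27 (SE) at 27°C and by 0.97 ± 0.26, 1.31 ± 0.27 and 0.91 ± 0.27 (SE) at 21°C, in the order WRKY46, WRKY54, WRKY70. The calls of WRKY70 are the least firm of the group. At 27°C its limma adjusted p of 0.0303 went to between 0.0545 and 0.119 without replicate 2 or 3 with mannitol or any 1 replicate without mannitol. At 21°C its limma adjusted p of 0.0289 went to between 0.0977 and 0.144 without replicate 1 or 3 with mannitol or replicate 1 or 2 without. The difference of WRKY46 at 21°C, a gene that passed the filter only through its mannitol libraries, was 0.78 without replicate 1 and 0.82 without replicate 3 of the mannitol group, and was then no longer called.

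The remaining tested genes of group III were nearly silent without mannitol. WRKY38 and WRKY62 are partners that dampen basal defence. WRKY38 (AT5G22570) had 2.81, 1.24 and 2 TPM at 27°C with mannitol and was listed at 0 in all 3 libraries at 27°C, and had 2.13, 1.29 and 3.73 TPM at 21°C with mannitol, against 0.215, 0 and 0 TPM at 21°C. WRKY62 (AT5G01900) had 2.65, 1.62 and 2.18 TPM at 27°C with mannitol, against 0.151, 0 and 0.150 TPM at 27°C, and 2.65, 1.55 and 4.75 TPM at 21°C with mannitol, against 0, 0.430 and 0 TPM at 21°C. WRKY63 (AT1G66600), which acts in abscisic acid and drought responses, averaged 2.39 ± 1.30 TPM at 27°C with mannitol and 0.144 ± 0.25 TPM at 27°C, and 1.07 ± 0.443 TPM at 21°C with mannitol and 0.0449 ± 0.0778 TPM at 21°C (SD, n = 3 each). For all 3 genes every mannitol library lay above every library without mannitol at the same temperature. All 3 passed the filter only through their mannitol libraries, so a difference was built into their selection and this separation is a description. Their log2 differences ran from 1.51 to 1.56 at 27°C and from 0.97 to 1.74 at 21°C.

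**Figure D2:**
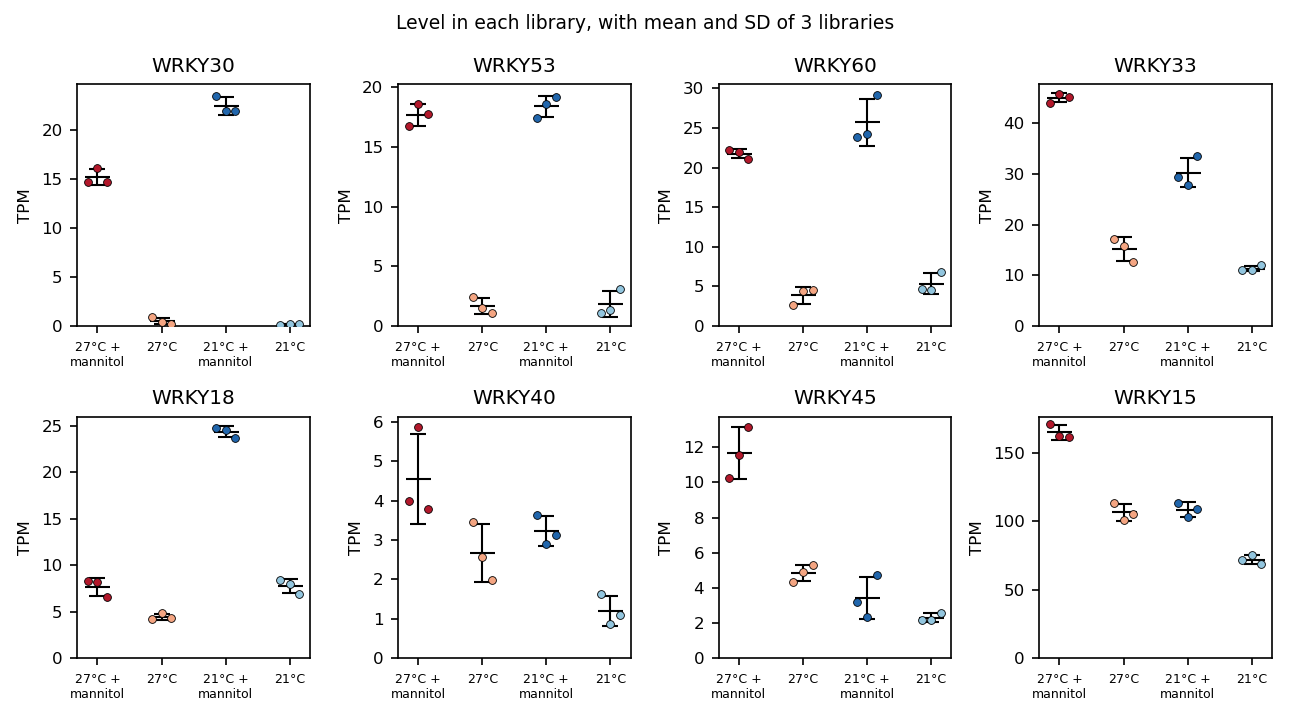
TPM of 8 WRKY genes in each library (points), with the mean and SD of 3 libraries (bars), for the 27°C with mannitol, 27°C, 21°C with mannitol and 21°C groups from left to right; each panel has its own axis from 0. WRKY30, WRKY53 and WRKY60 form a high pair of mannitol groups and a low pair without mannitol, WRKY18 is highest at 21°C with mannitol, and WRKY45 at 27°C with mannitol.

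The 3 genes of group IIa, WRKY18, WRKY40 and WRKY60, encode repressors of basal defence that form complexes with one another and also act in abscisic acid signalling. All 3 rose with mannitol at both temperatures, where 27.7% (27°C) and 15.4% (21°C) of all tested genes rose. WRKY60 (AT2G25000) had 22.2, 22 and 21.1 TPM at 27°C with mannitol, against 2.62, 4.46 and 4.51 TPM at 27°C, and 23.8, 24.2 and 29.2 TPM at 21°C with mannitol, against 4.63, 4.50 and 6.87 TPM at 21°C. Its log2 difference was 2.25 ± 0.17 at 27°C (SE; limma adjusted p = 1.67e-07) and 2.09 ± 0.17 at 21°C (SE; limma adjusted p = 3.94e-07).

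WRKY40 (AT1G80840) was the least abundant of the trio. It had 4, 5.88 and 3.78 TPM at 27°C with mannitol, against 3.46, 2.57 and 1.99 TPM at 27°C, and 3.65, 2.9 and 3.14 TPM at 21°C with mannitol, against 1.62, 0.865 and 1.11 TPM at 21°C. Its groups did not overlap at either temperature. The log2 difference was 0.60 ± 0.20 at 27°C (SE; limma adjusted p = 0.0303) and 0.95 ± 0.20 at 21°C (SE; limma adjusted p = 0.00294). The 27°C call was lost without mannitol replicate 2 (0.43, limma adjusted p = 0.143), without 27°C replicate 2 (0.58, 0.0647) or replicate 3 (0.46, 0.121), and after rescaling of the libraries (0.44, 0.118).

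WRKY18 (AT4G31800) was the 1 gene of the 47 whose mannitol difference was called as dependent on temperature under every alternative tried. It had 8.31, 8.17 and 6.60 TPM at 27°C with mannitol, against 4.18, 4.86 and 4.30 TPM at 27°C. At 21°C with mannitol it had 24.8, 24.6 and 23.7 TPM, against 8.47, 7.94 and 6.95 TPM at 21°C. The 27°C mannitol libraries thus reached about the level that seedlings at 21°C had without mannitol. Its log2 difference with mannitol was 0.67 ± 0.11 at 27°C (SE; limma adjusted p = 0.000454) and 1.53 ± 0.11 at 21°C (SE; limma adjusted p = 1.79e-07). The difference between these 2 effects was -0.86 ± 0.16 on the log2 scale (SE; limma adjusted p = 0.0056). In terms of warmth, WRKY18 fell by 0.69 at 27°C relative to 21°C without mannitol and fell by 1.55 with mannitol (limma adjusted p = 0.000199 and 9.02e-08).

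Across the 47 genes the test of that difference made few calls. None of the 45 WRKY genes was called for a higher mannitol difference at 27°C than at 21°C and 2 were called for a lower one, where 2.43% (higher) and 2.69% (lower) of all tested genes were called. Beside WRKY18 this was WRKY30, with -0.87 ± 0.22 (SE). WRKY30 passed the filter only through its mannitol libraries, so its call is given as a description. The call of WRKY30 rests on 1 to 8 reads per library without mannitol and was lost with a pseudocount of 0.1 (-1.58, limma adjusted p = 0.0704), with voom on recovered reads (-1.79, adjusted p = 0.145) and without any 1 of 8 libraries: all 3 at 27°C with mannitol, all 3 at 21°C with mannitol and replicates 1 and 2 at 21°C (limma adjusted p between 0.0512 and 0.086). WRKY48, WRKY2 and WRKY57 lay on the other side with differences of 0.68 ± 0.21, 0.61 ± 0.19 and 0.60 ± 0.18 (SE), which missed the threshold (limma adjusted p = 0.0786, 0.0744 and 0.0709). On the lower side, WRKY25 missed it with -0.47 ± 0.15 (SE; limma adjusted p = 0.0849). After rescaling of the libraries, 3 WRKY genes were called lower, 1 of them in group I, and 0 higher. Of all tested genes, 3.7% were then called lower and 1.57% higher.

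**Figure D3:**
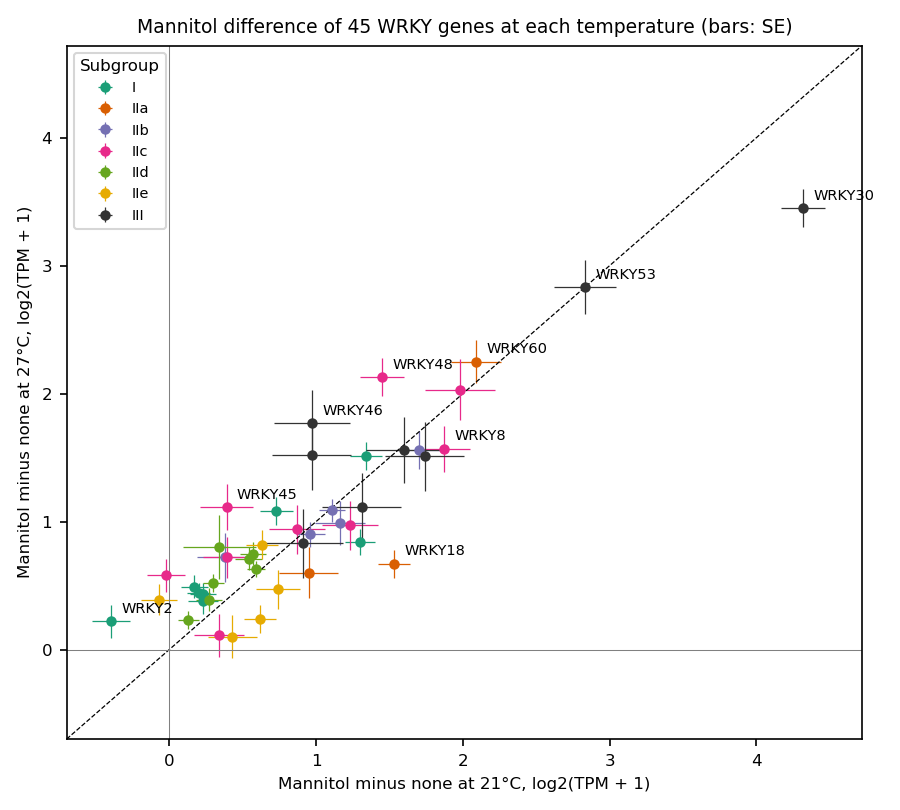
Log2 difference between mannitol and no mannitol at 27°C (vertical) against that at 21°C (horizontal) for the 45 tested WRKY genes, coloured by subgroup, with SE bars and a dashed line of equal difference; the axes share no library. WRKY18 (0.67 against 1.53) and WRKY30 (3.45 against 4.32) lie below the line, all 45 genes are above 0 on the vertical axis, and WRKY2, WRKY69 and WRKY57 are left of 0 on the horizontal one.

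Group I holds genes of defence and heat tolerance. WRKY33 (AT2G38470), which is required for resistance to necrotrophic fungi and is a target of the MAP kinases MPK3 and MPK6, had 44.1, 45.8 and 45.2 TPM at 27°C with mannitol, against 17.2, 15.9 and 12.6 TPM at 27°C. At 21°C with mannitol it had 29.4, 27.9 and 33.6 TPM, against 11, 11.1 and 12 TPM at 21°C. The 4 groups did not overlap, with 27°C with mannitol highest and 21°C lowest. The log2 difference with mannitol was 1.51 ± 0.11 at 27°C (SE; limma adjusted p = 8.69e-08) and 1.34 ± 0.11 at 21°C (SE; limma adjusted p = 3.33e-07). A gene annotated on the other strand overlaps 9 of the 47 genes, among them WRKY33, WRKY40, WRKY53, WRKY2 and WRKY29, and since no strand setting is stated for the counting, reads of such pairs cannot be told apart.

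WRKY25 (AT2G30250), which acts with WRKY33 and WRKY26 in heat tolerance, had 25.2, 25.8 and 24.1 TPM at 27°C with mannitol, against 13.6, 11.9 and 15.2 TPM at 27°C, and 20.4, 18.2 and 19.0 TPM at 21°C with mannitol, against 7.76, 6.45 and 7.35 TPM at 21°C. It rose with mannitol by 0.84 ± 0.10 at 27°C and 1.30 ± 0.10 at 21°C (SE). WRKY26 (AT5G07100) rose by 1.08 ± 0.11 at 27°C and 0.73 ± 0.11 at 21°C (SE). The other group I genes were flatter: WRKY1, WRKY3, WRKY4 and WRKY20 rose with mannitol at 27°C by 0.38 to 0.49 and were not called at 21°C (0.17 to 0.23).

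WRKY2 (AT5G56270), which acts in abscisic acid signalling during early seedling growth, was the only WRKY gene called lower with mannitol, and only at 21°C. It had 13.3, 10.6 and 11.1 TPM at 27°C with mannitol, against 10.9, 8.19 and 10.6 TPM at 27°C, and 6.38, 6.33 and 6.52 TPM at 21°C with mannitol, against 10.2, 8.01 and 8.22 TPM at 21°C. At 21°C it fell by 0.40 on the log2 scale (SE 0.13, limma adjusted p = 0.0461), and at 27°C the difference was 0.22 ± 0.13 (SE; limma adjusted p = 0.21). The call at 21°C was lost without any 1 of the 6 libraries compared (-0.45 to -0.30, limma adjusted p between 0.0556 and 0.189) and without 27°C mannitol replicate 2 or 3 or 27°C replicate 3 (-0.40, limma adjusted p between 0.0549 and 0.0601).

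Of the 9 group IIc genes, 8 rose with mannitol at 27°C and 5 at 21°C, and none fell. These counts include WRKY8 and WRKY51, which passed the filter only through their mannitol libraries. Of all tested genes, 27.7% rose at 27°C and 15.4% at 21°C. WRKY48 (AT5G49520), a repressor of defence against bacteria, had 8.24, 7.36 and 7.70 TPM at 27°C with mannitol, against 1.11, 0.800 and 1.11 TPM at 27°C, and 4.99, 5.45 and 6.25 TPM at 21°C with mannitol, against 1.23, 1.24 and 1.77 TPM at 21°C. Its log2 difference was 2.13 ± 0.15 at 27°C (SE; limma adjusted p = 8.48e-08) and 1.45 ± 0.15 at 21°C (SE; limma adjusted p = 5.23e-06). WRKY51 (AT5G64810), which with WRKY50 is tied to salicylic acid signalling and the damping of jasmonate responses, had 3.06, 4.12 and 5.21 TPM at 27°C with mannitol, against 0.432, 0.203 and 0.107 TPM at 27°C, and 4.01, 4.55 and 5.63 TPM at 21°C with mannitol, against 0.304, 0.103 and 1.11 TPM at 21°C. It rose by 2.03 ± 0.24 at 27°C and 1.98 ± 0.24 at 21°C (SE). WRKY50 (AT5G26170), which shares the lysine codon with WRKY51, did not pass for mannitol at either temperature: it had 5.92, 7.07 and 5.74 TPM at 27°C with mannitol, against 5.02, 6.26 and 5.91 TPM at 27°C, and its mannitol differences of 0.11 ± 0.17 at 27°C and 0.34 ± 0.17 at 21°C (SE) missed the threshold (limma adjusted p = 0.646 and 0.174).

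WRKY8 (AT5G46350), which acts in salt stress and defence against viruses, had 1.85, 2.33 and 2.59 TPM at 27°C with mannitol, against 0, 0.230 and 0.0606 TPM at 27°C, and 4.11, 3.14 and 4.27 TPM at 21°C with mannitol, against 0.286, 0.232 and 0.456 TPM at 21°C. It rose by 1.57 ± 0.18 at 27°C and 1.87 ± 0.18 at 21°C (SE), a description, since it passed the filter only through its mannitol libraries. WRKY45 and WRKY75 act in phosphate acquisition and senescence. WRKY45 (AT3G01970) had 10.3, 11.6 and 13.2 TPM at 27°C with mannitol, against 4.36, 4.89 and 5.28 TPM at 27°C, and 3.19, 2.37 and 4.76 TPM at 21°C with mannitol, against 2.15, 2.18 and 2.60 TPM at 21°C. It rose with mannitol by 1.11 ± 0.18 at 27°C (SE; limma adjusted p = 0.000236), while its 21°C groups overlapped and the difference of 0.39 ± 0.18 was not called (SE; limma adjusted p = 0.14). WRKY75 (AT5G13080) rose with mannitol by 0.94 ± 0.19 at 27°C and 0.87 ± 0.19 at 21°C (SE). WRKY28 (AT4G18170), which binds the promoter of the salicylic acid synthesis gene ICS1, rose by 0.97 ± 0.19 at 27°C and 1.23 ± 0.19 at 21°C (SE).

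Of the 5 group IIb genes, all rose with mannitol at 27°C and 4 at 21°C, the exception being WRKY42 at 21°C (0.38 ± 0.19, SE; limma adjusted p = 0.202). Of all tested genes, 27.7% rose at 27°C and 15.4% at 21°C. WRKY6 (AT1G62300), which acts in senescence and phosphate transport, averaged 37.2 ± 2.43 TPM at 27°C with mannitol and 16.9 ± 0.563 TPM at 27°C, and 37.0 ± 1.85 TPM at 21°C with mannitol and 16.6 ± 1.84 TPM at 21°C (SD, n = 3 each). WRKY31 (AT4G22070) rose by 1.56 ± 0.15 at 27°C and 1.70 ± 0.15 at 21°C (SE), the highest differences of the subgroup.

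Group IId, the calmodulin-binding subgroup, was the most abundant, with modest differences. Its 7 genes summed to 483 to 485 TPM at 27°C with mannitol and 328 to 334 TPM at 27°C, and to 344 to 347 TPM at 21°C with mannitol and 248 to 268 TPM at 21°C. All 7 rose with mannitol at 27°C, by 0.23 to 0.80, and 5 rose at 21°C, with medians of 0.63 and 0.34. Of all tested genes, 27.7% rose at 27°C and 15.4% at 21°C. After rescaling, 4 of the 7 were called higher at 27°C and 3 at 21°C. WRKY15 (AT2G23320), which is tied to growth under osmotic and oxidative stress, was the most abundant WRKY gene, with 171, 162 and 162 TPM at 27°C with mannitol, against 113, 101 and 105 TPM at 27°C, and 114, 103 and 109 TPM at 21°C with mannitol, against 71.5, 75.3 and 69.0 TPM at 21°C. Its mannitol differences of 0.63 ± 0.06 at 27°C and 0.59 ± 0.06 at 21°C (SE) were close to its warmth differences of 0.60 ± 0.06 with mannitol and 0.56 ± 0.06 without (SE). WRKY11 (AT4G31550) and WRKY17 (AT2G24570), which restrain basal resistance, rose by 0.71 ± 0.09 and 0.75 ± 0.09 at 27°C and by 0.54 ± 0.09 and 0.57 ± 0.09 at 21°C (SE). WRKY39 (AT3G04670), a gene of heat responses, rose with mannitol at 27°C by only 0.23 ± 0.07 (SE; limma adjusted p = 0.0198), a call lost after rescaling (0.04, limma adjusted p = 0.718) and without mannitol replicate 2 (0.22, 0.0657), mannitol replicate 3 (0.23, 0.0586) or 27°C replicate 1 (0.18, 0.0595).

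In group IIe, WRKY22 and WRKY29 act downstream of MAP kinases in the response to bacterial flagellin. WRKY29 (AT4G23550) had 21.3, 24.1 and 24.7 TPM at 27°C with mannitol, against 11.2, 14.4 and 12.9 TPM at 27°C, and 27.9, 24.2 and 24.0 TPM at 21°C with mannitol, against 15.2, 18.2 and 14.9 TPM at 21°C. It rose with mannitol by 0.82 ± 0.11 at 27°C and 0.63 ± 0.11 at 21°C (SE). WRKY22 (AT4G01250) had 16.0, 14.6 and 14.2 TPM at 27°C with mannitol, against 12.2, 13.4 and 11.7 TPM at 27°C, and 12.8, 13.2 and 11.8 TPM at 21°C with mannitol, against 7.02, 9.46 and 7.29 TPM at 21°C. Its libraries at 21°C were the lowest, and it rose by 0.62 ± 0.11 at 21°C (SE; limma adjusted p = 0.00128), against a difference of 0.24 ± 0.11 at 27°C that was not called (SE; limma adjusted p = 0.114). WRKY27 (AT5G52830), known from the symptoms of bacterial wilt, was the 1 gene of the 45 called in no comparison.

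**Figure D4:**
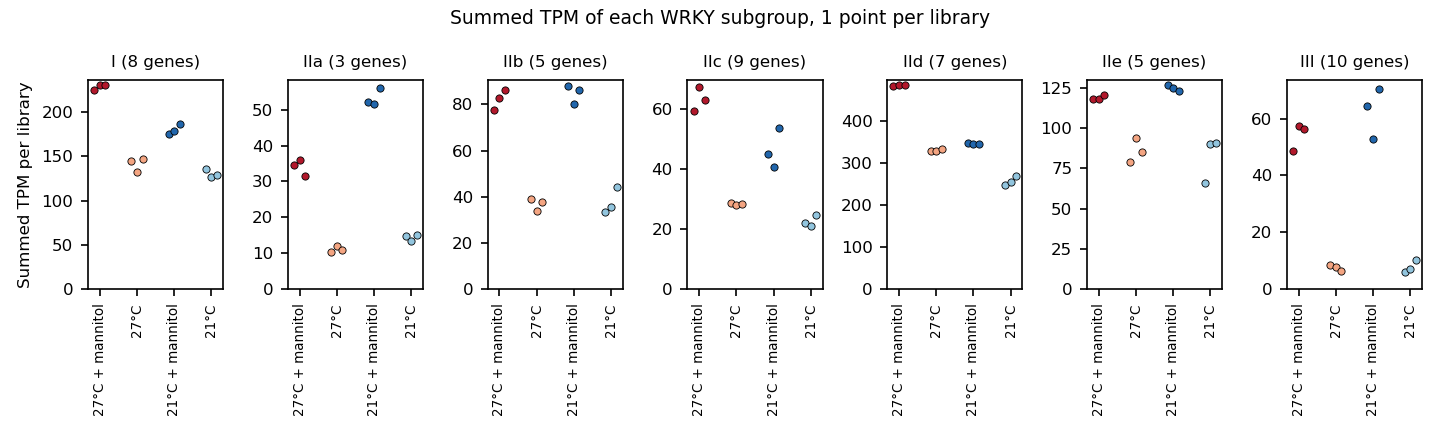
Summed TPM of the genes of each WRKY subgroup in each library (points) for the 27°C with mannitol, 27°C, 21°C with mannitol and 21°C groups from left to right; each panel has its own axis from 0. Group III stands at 48.7 to 70.3 TPM with mannitol and 5.93 to 10.4 TPM without, and group IId, the most abundant, is highest at 27°C with mannitol (483 to 485 TPM).

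For warmth, the share of WRKY genes called was near that of all genes or below it. Relative to 21°C, 12 of 45 WRKY genes were higher at 27°C and 3 were lower without mannitol, shares of 26.7% and 6.67%, where 28.2% (higher) and 16.6% (lower) of all tested genes were called. With mannitol in both groups, 18 were higher at 27°C and 4 were lower, shares of 40.0% and 8.89%, where 37.5% (higher) and 16.5% (lower) of all tested genes were called. The median log2 difference of the WRKY genes was 0.04 without mannitol and 0.23 with it, against 0.09 and 0.16 over all genes tested. None of the 8 tested group III genes was called for warmth without mannitol. For WRKY30, WRKY38, WRKY46, WRKY62 and WRKY63 this comparison could hardly make a call, because none reached 1 TPM in any library without mannitol. The log2 differences of WRKY53, WRKY54 and WRKY70 were -0.06, -0.45 and 0.21.

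The genes higher at 27°C in both warmth comparisons numbered 8, and those lower in both were WRKY18 and WRKY47. Among genes higher at 27°C, WRKY45 had the largest warmth difference with mannitol, 1.54 ± 0.18 (SE; limma adjusted p = 5.24e-06), and 0.82 ± 0.18 without (SE; limma adjusted p = 0.0015). The per-library values above show its 27°C mannitol libraries above all others. WRKY75 had 8.48, 10.9 and 8.03 TPM at 27°C with mannitol, against 5.07, 3.50 and 6.53 TPM at 21°C with mannitol, and 4.11, 4.20 and 4.43 TPM at 27°C, against 3.05, 1.95 and 1.80 TPM at 21°C. WRKY39 had 77.8, 80.5 and 79.8 TPM at 27°C with mannitol, against 51.6, 55.3 and 53.6 TPM at 21°C with mannitol, and 62.2, 68.7 and 71.4 TPM at 27°C, against 45.8, 47.9 and 52.5 TPM at 21°C. Neither gene had overlapping warm and cool libraries, and the log2 differences were 0.77 ± 0.19 and 0.56 ± 0.07 with mannitol and 0.70 ± 0.19 and 0.46 ± 0.07 without (SE), in the order WRKY75, WRKY39.

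Among genes higher at 27°C without mannitol, the largest warmth differences were those of WRKY25 (0.83 ± 0.10), WRKY45, WRKY50 (0.76 ± 0.17), WRKY40 (0.74 ± 0.20), WRKY75 and WRKY22 (0.60 ± 0.11, all SE). WRKY50 had 5.02, 6.26 and 5.91 TPM at 27°C, against 4.04, 2.99 and 2.07 TPM at 21°C. It was called for warmth in both comparisons, but with mannitol the call (0.53, limma adjusted p = 0.0155) was lost after rescaling (0.37, 0.0898), with voom (0.53, 0.0576) and without 27°C mannitol replicate 2 (0.45, 0.0675). WRKY33 was higher at 27°C by 0.56 ± 0.11 with mannitol (SE; limma adjusted p = 0.000464) and by 0.38 ± 0.11 without (SE; limma adjusted p = 0.00831).

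WRKY47 (AT4G01720) fell with warmth while it rose with mannitol. It had 15.9, 15.5 and 16.1 TPM at 27°C with mannitol, against 25.9, 24.5 and 23.8 TPM at 21°C with mannitol, and 9.24, 7.40 and 7.58 TPM at 27°C, against 11.6, 11.7 and 13.6 TPM at 21°C. On the log2 scale it fell by 0.61 at 27°C with mannitol and fell by 0.55 without (limma adjusted p = 0.000159 and 0.000441), and it rose with mannitol by 0.90 ± 0.10 at 27°C and 0.96 ± 0.10 at 21°C (SE). The third gene lower at 27°C without mannitol was WRKY29, which fell by 0.31 (limma adjusted p = 0.0335), a call lost without 27°C replicate 1 (-0.22, 0.13) or 3 (-0.32, 0.066) and without 21°C replicate 2 (-0.22, 0.154). With mannitol, WRKY2 was higher at 27°C than at 21°C by 0.77 ± 0.13 (SE; limma adjusted p = 0.000205).

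**Figure D5:**
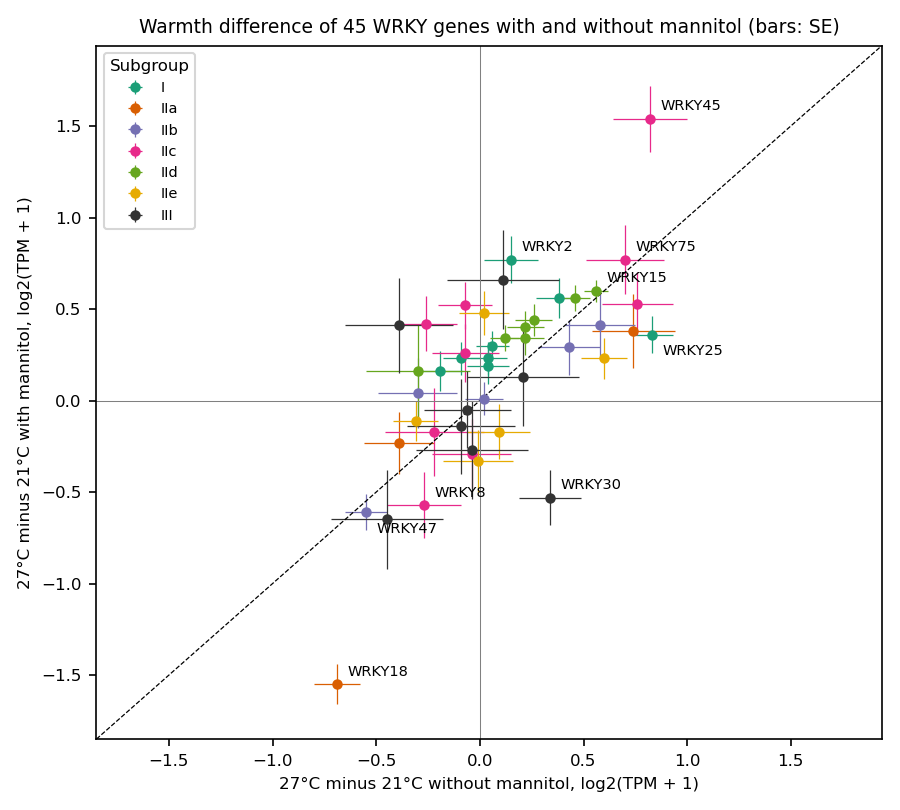
Log2 difference between 27°C and 21°C with mannitol (vertical) against that without mannitol (horizontal) for the 45 tested WRKY genes, coloured by subgroup, with SE bars and a dashed line of equal difference; the axes share no library. WRKY18 lies farthest down (-1.55 with and -0.69 without mannitol) and WRKY45 farthest up (1.54 and 0.82).

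TPM are relative to the total of each library. When libraries were rescaled by the median of ratios, the median of all genes moved by -0.19 in the mannitol comparison at 27°C, by -0.10 in the one at 21°C, and by -0.17 and -0.09 in the warmth comparisons with and without mannitol. The WRKY genes higher and lower then numbered 32 and 0 in the first of these comparisons, where 11.7% (higher) and 14.9% (lower) of all tested genes were called, and 29 and 1 in the second, against 10.3% and 9.53%. They numbered 10 and 7 in the third, against 23% and 25.4% of all tested genes, and 10 and 4 in the last, against 22% and 21.7%. None of the 112 called WRKY differences changed sign. The median WRKY difference became 0.65 for mannitol at 27°C and 0.63 at 21°C. These rescaled counts and medians also include the 7 WRKY genes that passed the filter only through their mannitol libraries.

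Of the 25 WRKY genes outside the 47, 17 had enough signal to test. Among these, 7 (41.2%) rose with mannitol at 27°C and 5 (29.4%) at 21°C, beside 27.7% and 15.4% of all tested genes, and none fell. After rescaling, 6 were higher and 1 lower at 27°C, and 4 were higher and 1 lower at 21°C. WRKY71, a gene of shoot branching and flowering, had 5.26, 2.99 and 5.44 TPM at 27°C with mannitol, against 0.368, 0.576 and 0.487 TPM at 27°C, and 5.14, 4.93 and 5.18 TPM at 21°C with mannitol, and was listed at 0 at 21°C. WRKY24 (AT5G41570) had 4.92, 4.65 and 4.02 TPM at 27°C with mannitol, against 2.14, 1.73 and 1.54 TPM at 27°C, and 2.37, 2.9 and 2 TPM at 21°C with mannitol, against 2.73, 2.58 and 2.35 TPM at 21°C. Its libraries overlapped at 21°C only, and its mannitol difference was larger at 27°C than at 21°C by 1.04 ± 0.22 (SE; limma adjusted p = 0.0117), a call kept under all 17 alternatives. The log2 difference of WRKY59 was 1.70 ± 0.19 at 27°C and 1.81 ± 0.19 at 21°C (SE). Every library without mannitol was under 1 TPM for both WRKY71 and WRKY59, so they too passed the filter only through their mannitol libraries.

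VQ proteins are small partners that bind WRKY factors and change their activity. Of 26 tested VQ genes, 18 (69.2%) rose with mannitol at 27°C and none fell, and 14 (53.8%) rose and 1 (3.85%) fell at 21°C. The shares over all tested genes were 27.7% (higher) and 6.8% (lower) at 27°C and 15.4% and 4.61% at 21°C. After rescaling, 14 VQ genes were higher and none lower at 27°C, and 12 were higher and 1 lower at 21°C. The counts before rescaling include VQ10 at both temperatures and VQ17 at 27°C. Both passed the filter only through their mannitol libraries, so a difference was built into their selection, and VQ18 also needed its mannitol libraries to pass. VQ23, also called SIB1, is a partner of WRKY33, and had 5.42, 6.76 and 9.64 TPM at 27°C with mannitol, against 0.741, 1.16 and 0.981 TPM at 27°C, and 7.84, 8.31 and 7.17 TPM at 21°C with mannitol, against 2.08, 1.52 and 1.15 TPM at 21°C. VQ28 rose by 2.28 ± 0.18 at 27°C and 2.69 ± 0.18 at 21°C (SE), the highest of the list. VQ16, or SIB2, a related partner of WRKY33, fell at 27°C relative to 21°C by 1.13 with mannitol and fell by 1.32 without (log2; limma adjusted p = 2.49e-07 and 7.31e-08).

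Of 12 genes of the MAP kinase cascade that acts on WRKY factors, 9 (75.0%) rose with mannitol at 27°C and 4 (33.3%) at 21°C, beside 27.7% and 15.4% of all tested genes, and none fell. After rescaling, 6 were higher and 1 lower at 27°C, and 4 were higher at 21°C. The 9 called at 27°C before rescaling include MPK11, which passed the filter only through its mannitol libraries, so a difference was built into its selection. MPK3, which phosphorylates WRKY33, had 79.1, 79.8 and 83.1 TPM at 27°C with mannitol, against 51.6, 42.7 and 45.5 TPM at 27°C, and 94.9, 89.6 and 88.3 TPM at 21°C with mannitol, against 62.7, 62.9 and 60.6 TPM at 21°C. Its log2 difference with mannitol was 0.78 ± 0.07 at 27°C and 0.54 ± 0.07 at 21°C (SE). MKK1, a kinase upstream of MPK4, rose by 0.86 ± 0.11 at 27°C and 0.70 ± 0.11 at 21°C (SE).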

How the data were processed

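The authors deposited a table of TPM values, which sum to 1000000 in each library although the file headers call them gene counts. Per the submitters' processing notes, fastp 0.20.1, HISAT2 2.1.10, DESeq2 1.26.0 and the TAIR10 genome were used. No counting tool, gene length table or strand setting is stated there. To recover reads, the TPM of each library were first divided by a factor of that library. Dividing a gene's values by the largest step that fits all libraries then gave whole reads, within 0.01 read. This held for all 21760 genes tried, those above 0 TPM in 6 or more libraries.

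Genes with at least 1 TPM in at least 3 libraries were tested (20005, with 7650 left out) by limma 3.58.1 in R 4.3.3 on log2(TPM + 1), with a mean-variance trend, 4 group means over all 12 libraries, two-sided p-values and Benjamini-Hochberg adjustment. After ±, log2 differences carry the fitted SE and mean TPM the SD over 3 libraries. The script was tested on simulated data. None of the 66 pairs of libraries held identical values. Alternatives were a pseudocount of 0.1, no filter, median-of-ratios rescaling, a replicate block, fits of only the 2 groups compared, leaving out each library, and voom on the recovered reads, added after seeing the data.

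The members, gene lists and tests were chosen with earlier results of these data known. Per-library values are given for the 8 genes the choice of the set names, the called genes with the highest (up to 6) and lowest (up to 4) differences in each comparison, those called for the interaction, and those listed at 0 in a group; other genes of the family were added after their values were seen. Of the other lists, those with the largest differences are named. Sequences were read from the RefSeq TAIR10.1 genome and annotation, which holds all 47 genes, with Biopython 1.88.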

Additional observations from a re-analysis of the deposited data

Results flagged for a closer look

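The test of the difference itself called the mannitol difference of WRKY18 smaller at 27°C than at 21°C. WRKY30 was called in the same direction, but less firmly. For WRKY18 the value was -0.86 on the log2 scale (SE 0.16, limma adjusted p = 0.0056), and the 3 libraries at 27°C with mannitol (6.60 to 8.31 TPM) lay far below the 3 at 21°C with mannitol (23.7 to 24.8 TPM). For WRKY30 the value was -0.87 on the log2 scale (SE 0.22), with 14.7 to 16.1 TPM at 27°C with mannitol and 21.9 to 23.5 TPM at 21°C with mannitol. WRKY30 had only 1 to 8 reads per library without mannitol, and its call was lost under 10 of the alternatives. It passed the filter only through its mannitol libraries, so its call is given as a description.
Outside the 47 genes, WRKY24 was called in the other direction, with a mannitol difference larger at 27°C than at 21°C by 1.04 on the log2 scale (SE 0.22, limma adjusted p = 0.0117).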

How the results depend on the processing

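Of 69 called differences of the 24 genes named by rule, 55 were called in the same direction under every alternative. Over 1240 values under alternatives, 1175 kept their call, 65 lost it and 0 turned in sign. Counts of WRKY genes that moved by over 1.5 times were as follows, and the cause was not tested. With a pseudocount of 0.1, the genes lower at 27°C than at 21°C numbered 5 without mannitol and 2 with mannitol, and 1 gene was called for a smaller mannitol difference at 27°C. With no filter on low values, 0 genes were lower with mannitol at 21°C. After rescaling, 10 genes were higher and 7 lower at 27°C than at 21°C with mannitol, and the lower ones numbered 8 when only those 2 groups were fitted and 7 with voom. Leaving out 1 library, the counts ran from 9 to 13 (higher) and 2 to 5 (lower, 5 without 27°C replicate 2) for warmth without mannitol. They ran from 27 to 32 (higher) and 0 to 1 (lower) for mannitol at 21°C, from 35 to 41 and 0 to 0 for mannitol at 27°C, and from 15 to 19 and 3 to 5 for warmth with mannitol. For the interaction they ran from 0 to 2 (higher, 2 without 27°C replicate 1 and 1 without 21°C mannitol replicate 3) and from 1 to 3 (lower). With mannitol, the warmth calls of WRKY8, WRKY48 and WRKY50 were lost without some single libraries (limma adjusted p up to 0.0633, 0.0972 and 0.0675). Most same-numbered replicates did not deviate together: 2 of 18 pairs had a correlation over 0.1 (range -0.0763 to 0.128). Those were replicates 1 and 2 of the 27°C and 21°C groups (0.128 and 0.116). Crossed pairs of replicates 1 and 2 in these groups had -0.158 and -0.118. At 27°C, replicates 1 and 2 were the most unlike pair within a group. Their chi-square per gene on recovered reads was 18.1, where other pairs had 1.94 to 8.18. With a replicate block, the counts were 13 and 4 for warmth without mannitol, 30 and 1 for mannitol at 21°C, 41 and 0 for mannitol at 27°C, 19 and 4 for warmth with mannitol, and 0 and 2 for the interaction. Depth limits genes with few reads, such as WRKY38, WRKY41, WRKY55 and WRKY62.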
